A study of Mus musculus with 5 samples.

Results

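The protein genes of the mitochondrial ribosome were followed in the mouse cardiac progenitor clones 1D, 11B, 20B, 30 and 42. The genes were taken as the probe sets whose single annotated symbol begins with Mrpl or Mrps and a digit, where a probe set is a group of short array probes read as 1 transcript. This gave 156 probe sets of 76 genes, 47 for the large subunit (Mrpl) and 29 for the small subunit (Mrps), among 34945 probe sets of 18193 named genes. The 5 clones came from the left ventricle of mice aged 5 to 6 months, of a strain the labels spell C67BL/6, with no genotype or treatment given. The cells were selected magnetically for Sca-1, grown through cardiospheres, cloned with rings and subcloned by dilution, and are labelled c-kit+. Each clone is 1 cell line on 1 Affymetrix array, the number of mice is not given, and cells that had not been cloned are not among the groups. There is no replicate of any clone, so the differences below carry no test and no replicate check.

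Mitochondrial ribosomes make the few respiratory chain proteins that mitochondrial DNA encodes. Their RNA comes from mitochondrial DNA, whereas all their proteins are encoded in the nucleus, translated in the cytosol and imported. The small subunit decodes the messenger RNA and the large subunit joins the amino acids. Heart muscle depends heavily on the respiratory chain, and human variants in some of these genes, MRPL3 and MRPL44 among them, cause cardiomyopathy.

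The deposited values were ratios. As read from the values themselves, the divisor was the median of the probe set over the 5 arrays or, for dim probe sets, a floor. They carried differences between clones but no level, so genes were never set against each other by abundance. A probe set counted as measured if it was divided by its own median, or if a clone rose above the floor, and if it ranged over more than 0.05 log2 units. By this filter 98 of the 156 probe sets and 72 of the 76 genes were measured, 46 of 47 for the large and 26 of 29 for the small subunit. Mrpl43, Mrps26, Mrps27 and Mrps28 were not measured. The measured genes are not all members, and a gene that passed only through a clone above the floor had to differ: Mrpl35, Mrpl42, Mrps10 and Mrps31 passed in that way. All genes together gave 9435 measured genes. A gene's value is the mean log2 ratio of its measured probe sets, and the deviation of a clone is its log2 value minus the median of the other 4 clones. Differences were described by fixed sizes of 0.5 log2 units (1.41-fold) and 1 log2 unit (2-fold).

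Measurement error could be judged only within the arrays. The deviation of a clone on a single member probe set had an SD of 0.225 log2 units, against 0.341 over all genes. These came from 36 and 6681 pairs of probe sets of the same gene, and genes with more probe sets gave more pairs. This SD, called the error of a single probe set below, covers neither culture nor RNA preparation. Of the 72 genes, 54 rested on 1 probe set. Some sets of ratios recurred unchanged on many probe sets, so clones with such a shared level cannot be ordered among themselves. This touched 30 of the 98 member probe sets (30.6%), against 35.1% of all measured probe sets. The ratio of the Actb 5′ to 3′ probe sets, a sign of RNA integrity, was 0.597 in clone 11B and 0.743 in clone 30 relative to the median clone, against 1.08 in 1D, 1.00 in 20B and 1.08 in 42. The same ratio for Gapdh was also lowest in 11B and next lowest in 30, but nearer to 1. It was 0.893 in 11B and 0.966 in 30, against 1.12 in 1D, 1.00 in 20B and 1.05 in 42. Of the progenitor markers, Kit was measured, with a deviation of 0.24 log2 units in 20B, Pou5f1 was not measured, and Ly6a had no probe set of its own. None of 4 endothelial and none of 4 leukocyte markers were measured, against 3 of 5 cardiomyocyte, 3 of 5 fibroblast and 2 of 4 smooth muscle and pericyte markers. Without levels, the labelled cell type could not be checked further.

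Promoter letters are shown because NRF1, GABPA (an ETS factor) and YY1 are known regulators of nuclear genes for mitochondria. RefSeq windows (GRCm38.p6), covering 250 bases before and 50 after each start, were found for 67 of the 76 genes, in 73 windows. The ETS letters CCGGAAG, searched on both strands like all motifs, stood in 25 windows (34.2%), against 8.86% of all 32851 windows and 16.1% of the 9910 windows of measured genes. The YY1 letters AAGATGGC stood in 12 (16.4%), against 2.75% and 4.39%. The NRF1 core GCATGC stood in 9 (12.3%), against 7.93% and 9.56%. The full NRF1 motif, which is this core with GC on either side, stood in 3 of the same windows (4.11%), against 0.971% and 1.95%. The E-box CACGTG stood in 7 windows (9.59%) of 5 genes, against 7.15% and 9.72%, with 1 place in Mrpl2 counted in 3 overlapping windows. In 27 genes none of these letters was in the window.

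The following stretches carry these motifs in genes whose clone values are described below; capitals mark motif letters, and bases run 5′ to 3′ on the gene's strand. They are Mrpl32 at chr13:14613095-14613144 (minus strand), Mrpl20 at chr4:155802825-155802870 (plus), Mrpl37 at chr4:107067003-107067048 (minus) and Mrpl2 at chr17:46646070-46646115 (plus). Further down are Mrpl3 at chr9:105053229-105053267 (plus), Mrps11 at chr7:78783004-78783051 (plus), Mrps18a at chr17:46110958-46111003 (plus), Mrps18b at chr17:35916638-35916683 (minus) and Mrps18c at chr5:100798576-100798621 (plus).
Mrpl32, NRF1 and a second core: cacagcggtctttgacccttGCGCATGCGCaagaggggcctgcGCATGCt
Mrpl20, E-box: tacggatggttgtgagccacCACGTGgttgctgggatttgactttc
Mrpl37, E-box: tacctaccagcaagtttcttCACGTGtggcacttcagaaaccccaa
Mrpl2, E-box: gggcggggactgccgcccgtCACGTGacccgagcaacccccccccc
Mrpl3, ETS: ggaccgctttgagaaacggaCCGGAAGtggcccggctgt
Mrps11, YY1: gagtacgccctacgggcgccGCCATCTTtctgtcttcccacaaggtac
Mrps18a, ETS: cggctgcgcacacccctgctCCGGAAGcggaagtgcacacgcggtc
Mrps18b, core of NRF1: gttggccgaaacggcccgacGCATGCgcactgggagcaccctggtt
Mrps18c, E-box and ETS: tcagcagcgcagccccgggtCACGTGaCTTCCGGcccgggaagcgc
A match is a description of the letters and does not show that a factor binds. The median range over the clones was 0.45 log2 units for the 22 measured genes with the ETS letters and 0.53 for the 42 without. Of 6 genes with a window and a range of at least 1 log2 unit, none had them. As 42 of the measured genes lacked them and 22 had them, 6 genes are too few to read. No link between the letters and the range was tested, and the ranges were not compared in this way over all genes.

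The mitochondrial ribosomal protein genes differed between clones by a median range of 0.50 log2 units (1.41-fold), against 0.41 (1.33-fold) over all measured genes. A range of at least 0.5 log2 units was reached by 36 of the 72 genes (50.0%), where the background over all measured genes was 41.5%. A range of at least 1 was reached by 8 (11.1%), against 13.0%. The smallest range was 0.078 and the largest 1.20 log2 units. The genes did not move as a block: the median deviation lay between -0.025 in clone 11B and 0.012 in clone 42, while single genes lay between -1.14 and 0.95.

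Clone 11B had the most uneven split of small deviations. More than 0.1 log2 units (1.07-fold) below the other clones lay 26 of the 72 genes (36.1%), against 21.0% of all measured genes. More than 0.1 above lay 7 (9.72%), against 23.3%. Clone 11B was the lowest clone for 18 genes (25.0% against 17.7%) and the highest for 6 (8.33% against 18.9%). At the larger size of 0.5 log2 units, 6 genes lay lower (8.33% against 4.71%) and none higher, against 4.46%. The 0.1 size is smaller than the error of a single probe set and was chosen after values had been seen. The low Actb 5′ to 3′ ratio belongs to the same clone, with Gapdh also lowest there but nearer to 1, and its part in the result was not tested. The 3 measured fibroblast markers went different ways there, with deviations of 0.11 for Pdgfra, -0.29 for Ddr2 and -0.26 for Col1a1, and their part was not tested either. On chromosome 11, Mrpl38 (-0.64), Mrpl45 (-0.62), Mrpl55 (-0.47), Mrpl10 (-0.27), Mrps7 (-0.24), Mrpl58 (-0.20), Mrpl27 (-0.14) and Mrpl12 (-0.13) were lower in 11B. Of the other measured members there, Mrpl22 lay at -0.065, Mrps23 at 0.24 and Mrps24 at 0.22. Members on other chromosomes were also low, Mrps17, Mrpl23 and Mrpl19 among them, and the part of location was not tested. Each array read the cells of 1 clone in bulk, so fewer cells of a type and less RNA per cell cannot be told apart.

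**Figure D1:**
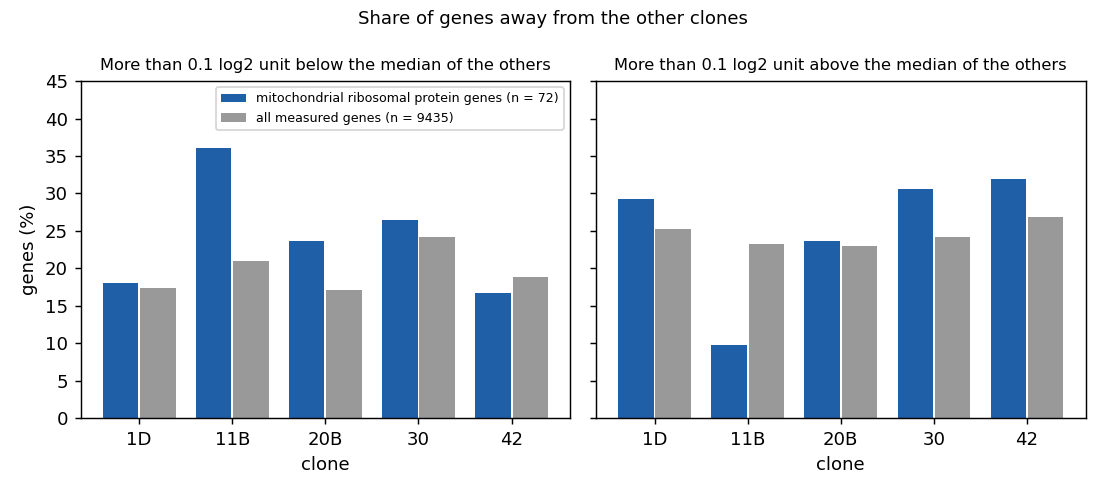
Share of genes (percent) more than 0.1 log2 units below (left) and above (right) the median of the other 4 clones, by clone, for the 72 measured mitochondrial ribosomal protein genes (blue bars) and all 9435 measured genes (grey bars). In clone 11B the share below is 36.1% against 21.0%, and the share above 9.72% against 23.3%.

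In the other clones the shares more than 0.1 log2 units above or below lay nearer to those of all genes. In 1D, 21 genes (29.2% against 25.3%) lay more than 0.1 above and 13 (18.1% against 17.4%) below, a count that is 7 without clone 30. In 20B, 17 lay above (23.6% against 23.0%) and 17 below (23.6% against 17.1%). In 30, 22 lay above (30.6% against 24.2%) and 19 below (26.4% against 24.2%). Clone 42 had 23 above (31.9% against 26.9%) and 12 below (16.7% against 18.9%). It was the lowest clone for 7 genes (9.72% against 22.2%) and the highest for 22 (30.6% against 22.5%). That share of lowest genes lay farther from the share of all genes than the one in 11B did.

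Set directly against each other, the clones showed the same tilt, in pairs that share the 11B array. At least 0.5 log2 units higher in 1D than in 11B were 9 genes (12.5%, background 8.36%), and none were higher in 11B (background 5.54%). Against 20B, 1 gene was higher in 11B (1.39%, background 4.72%) and 10 were higher in 20B (13.9%, background 6.52%). Against 30 the counts were 4 higher in 11B (5.56%, background 8.83%) and 12 higher in 30 (16.7%, background 8.36%). Against 42 they were 1 higher in 11B (1.39%, background 7.40%) and 9 higher in 42 (12.5%, background 9.79%). The median difference 11B minus 42 was -0.082 log2 units, against -0.0029 over all genes. Clones 1D and 42 differed in the fewest genes, 5 (6.94%), against 13.6% of all genes.

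**Figure D2:**
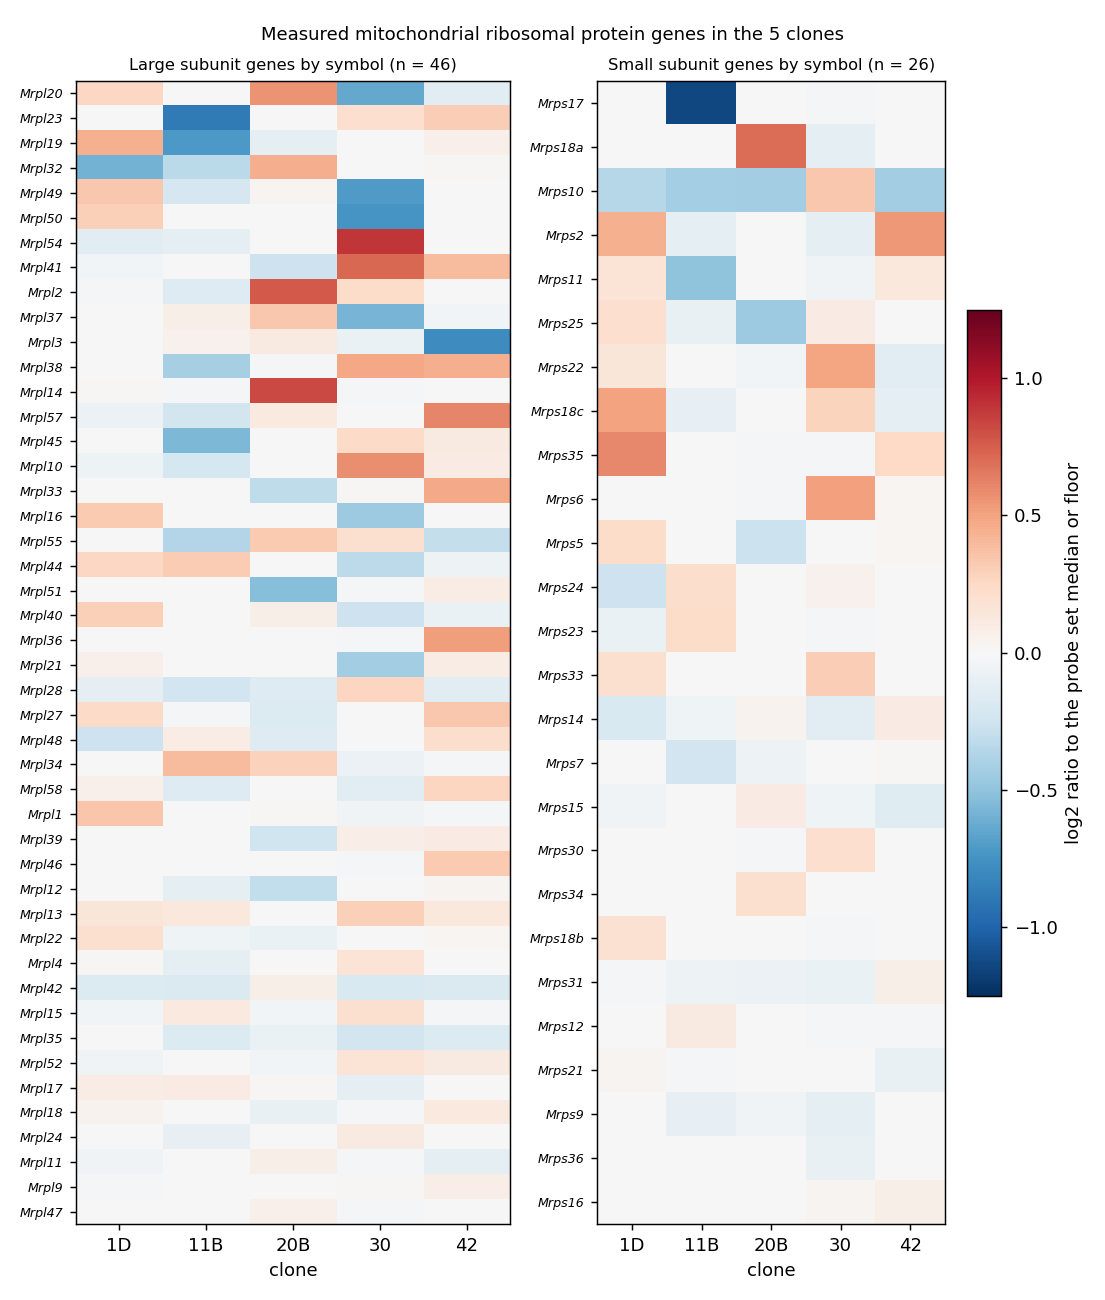
Mean log2 ratio of each measured mitochondrial ribosomal protein gene (down the page, by falling range) in each clone (across), with 46 large-subunit genes on the left and 26 small-subunit genes on the right. Strong colours are scattered over genes and clones, and the deepest value is that of Mrps17 in clone 11B, at -1.13.

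The genes low in clone 11B belong to both subunits. Mrps17, a small-subunit protein with a bacterial counterpart, had a ratio of 0.456 in 11B, against 1.00 in 1D, 1.00 in 20B, 0.989 in 30 and 1.00 in 42. This was 0.455 times the median of the other clones (-1.14 log2), and Mrps17 was the only measured member with a deviation of at least 1 log2 unit in any clone (1.39%, background 6.29%). The other 4 clones stood at a shared level found on 426 other probe sets, so they cannot be ordered. Mrpl23, which sits at the exit of the tunnel for the new protein chain, had 0.541 in 11B, against 1.00 in 1D, 1.00 in 20B, 1.16 in 30 and 1.24 in 42. That is 0.502 times the others (-0.99 log2), with all 4 other clones above 11B. Mrpl19 had 0.609 in 11B, against 1.37 in 1D, 0.923 in 20B, 1.00 in 30 and 1.04 in 42 (-0.75 log2). Its lowest and highest clones, 11B and 1D, were 2.24-fold apart. With no condition on the floor, the 11B deviation is -0.25.

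A further 3 genes lay at least 0.5 log2 units low in 11B and are named because their values were seen. Mrpl45, which ties the ribosome to the inner membrane, had 0.676 in 11B, against 1.00 in 1D, 0.997 in 20B, 1.18 in 30 and 1.08 in 42 (-0.62 log2). Mrpl38 had 0.752 in 11B, against 1.00 in 1D, 0.992 in 20B, 1.40 in 30 and 1.37 in 42 (-0.64 log2). Both its other own-median probe sets were flat, and with them averaged in the deviation is -0.21. Mrps11, a small-subunit protein whose promoter holds the YY1 letters, had 0.708 in 11B, against 1.12 in 1D, 1.00 in 20B, 0.973 in 30 and 1.09 in 42 (-0.56 log2). Clone 11B was the lowest clone for each of these. Highest in 11B by deviation were Mrpl34 (0.40 log2) and Mrpl44 (0.34 log2), which did not reach the size of 0.5.

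Clone 20B was the highest clone for 13 genes (18.1%, background 16.7%), several of them large-subunit genes. At least 0.5 log2 units higher lay 5 genes (6.94%, background 4.30%), and 2 lay lower (2.78%, background 2.09%). Mrpl14, to which the assembly factor Malsu1 binds, had a ratio of 1.77 in 20B, against 1.01 in 1D, 0.985 in 11B, 0.986 in 30 and 1.00 in 42. It was 1.79 times the others (0.84 log2), and the other 4 clones lay close together. Mrpl2, a core protein near the peptidyl transferase centre, had 1.70 in 20B, against 0.985 in 1D, 0.894 in 11B, 1.17 in 30 and 1.00 in 42 (1.72 times, 0.78 log2). Mrpl20 had 1.48 in 20B, against 1.20 in 1D, 1.00 in 11B, 0.644 in 30 and 0.905 in 42. It was therefore 0.64 log2 units higher in 20B and 0.77 lower in 30, the largest range of any member at 1.20 log2 units. Mrpl14 and Mrpl2 lie on chromosome 17, as does Mrps18a, described below, which was also higher in 20B. Other members there, Mrpl18, Mrpl28, Mrps10 and Mrps18b, lay between -0.12 and -0.0094 log2 in 20B, and Mrps34 at 0.21. The motif stretches of Mrps18a and Mrpl2 start at bases 46110958 and 46646070 of chromosome 17. Those of Mrps18b and Mrpl18 start at 35916638 and 12916305, and positions of the others, Mrpl14 among them, are not given here. Whether location plays a part, on the chromosome or near Mrpl2, was not tested.

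Mrpl32, whose precursor is cut by the m-AAA protease before the protein joins the ribosome, differed in opposite directions in 2 clones. Its ratio was 1.37 in 20B and 0.662 in 1D, against 0.793 in 11B, 1.00 in 30 and 1.01 in 42. The deviations were 0.62 log2 in 20B and -0.60 in 1D. Afg3l2, a subunit of that protease, ranged over 0.26 log2 units, less than the size of 0.5. The 2 genes low in 20B were Mrpl51 (-0.53 log2), with 1D, 11B and 30 at a shared level, and Mrps25 (-0.50 log2). Mrpl51 lies at -0.29 with no condition on the floor.

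Clone 30 held the most genes past 0.5 log2 units, 6 higher (8.33%, background 6.19%) and 4 lower (5.56%, background 6.89%). In both directions together this was 13.9%, near the 13.1% of all genes, which was also the highest background of any clone. Mrpl54 had a ratio of 1.86 in 30, against 0.906 in 1D, 0.921 in 11B, 1.00 in 20B and 1.00 in 42 (1.94 times, 0.95 log2). Mrpl41 was measured on 2 probe sets, which had 1.86 and 1.46 in 30, against 0.957 and 1.00 in 1D, 1.00 and 0.998 in 11B, 0.798 and 0.875 in 20B, and 1.38 and 1.26 in 42. Both put clone 30 highest and 42 next, and the mean was 0.73 log2 above the others. Mrps10 (0.77 log2) was measured only because clone 30 rose above the floor; it lies at 0.34 log2 where values below the floor are set to it.

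Also higher in 30, and named because their values were seen, were Mrpl10, which carries the stalk protein Mrpl12, by 0.61 log2, Mrps6 by 0.52 (0.29 with no condition on the floor) and Mrps22 by 0.50. Lower in 30 were 4 large-subunit genes. Mrpl49 had 0.614 in 30, against 1.26 in 1D, 0.862 in 11B, 1.02 in 20B and 1.00 in 42 (-0.72 log2). Mrpl50 had 0.598 in 30, against 1.23 in 1D, 0.995 in 11B, 1.00 in 20B and 1.00 in 42 (-0.74 log2), with 11B, 20B and 42 at a shared level. Its other probe set was flat, and with it averaged in the deviation is -0.36. Mrpl37 had 0.669 in 30, against 1.00 in 1D, 1.05 in 11B, 1.26 in 20B and 0.977 in 42 (-0.62 log2). With Mrpl20, these genes have clone 30 as their lowest. Mrpl20, Mrpl37 and Mrpl50 lie on chromosome 4, as does Mrps15, at -0.033 log2 in 30. Mrpl49 lies on chromosome 19, as do Mrpl21 (-0.47 log2 in 30), Mrpl16 (-0.45) and Mrpl11 (0.0008). The part of location was not tested. The Actb 5′ to 3′ ratio was also low in clone 30, and its part was not tested. That of Gapdh was 0.966 there, lower than in every clone but 11B, though nearer to 1.

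In clone 42, 3 genes lay at least 0.5 log2 units higher (4.17%, background 6.38%) and 1 lower (1.39%, background 3.94%). The low gene was Mrpl3, a core protein near the peptidyl transferase centre. Its 2 measured probe sets had 0.528 and 0.638 in 42, against 1.00 and 1.00 in 1D, 1.07 and 1.00 in 11B, 1.17 and 1.00 in 20B, and 0.883 and 1.00 in 30. Both put 42 lowest, and the mean was 0.570 times the others (-0.81 log2); on the second probe set 1D, 11B and 20B stood at a shared level. Mrpl57 had 1.53 in 42, against 0.951 in 1D, 0.854 in 11B, 1.09 in 20B and 1.00 in 30 (0.65 log2). Mrpl36, named because its value was seen, lay 0.53 log2 higher with its other clones tied, and Mrps2 is described with its probe sets below.

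In clone 1D, 4 genes lay at least 0.5 log2 units higher (5.56%, background 5.57%) and 1 lower, Mrpl32 (1.39%, background 2.36%), so both shares were near or under those of all genes. Mrps35 had 1.52 in 1D, against 1.00 in 11B, 0.983 in 20B, 0.991 in 30 and 1.19 in 42 (0.61 log2). Mrpl19 (0.51 log2) and Mrps2 (0.51) were also higher. Mrpl19 lies at 0.34 with no condition on the floor and at 0.26 with every probe set averaged. The remaining gene was Mrps18c, 1 of 3 paralogs of a bacterial small-subunit protein.

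**Figure D3:**
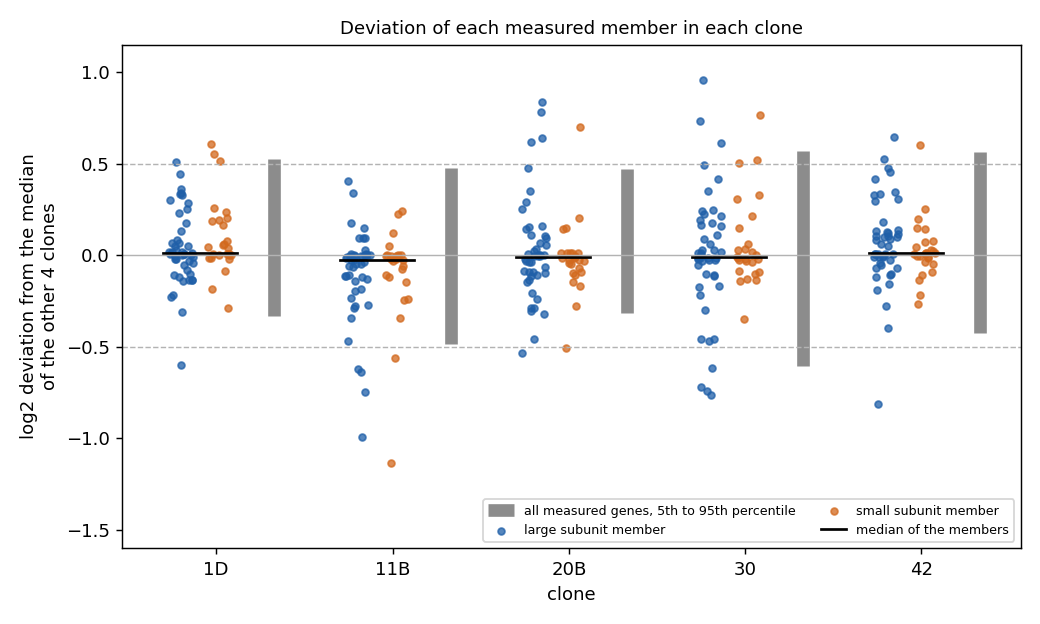
Log2 deviation from the median of the other 4 clones for each measured gene (blue points large subunit, orange points small subunit) by clone, with the members' median as a black line, the 5th to 95th percentile of all measured genes as a grey bar and dashed lines at 0.5 log2 units either side of 0. No point lies above the upper dashed line in clone 11B and 6 lie below the lower one, while clone 30 has 6 above and 4 below.

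The 3 Mrps18 paralogs each had their own pattern. Mrps18a, whose protein sits in the large subunit despite its symbol, had 1.62 in 20B, against 1.00 in 1D, 0.998 in 11B, 0.917 in 30 and 1.00 in 42 (0.70 log2). Mrps18c had 1.42 in 1D, against 0.933 in 11B, 1.00 in 20B, 1.22 in 30 and 0.916 in 42 (0.55 log2). Mrps18b had 1.14 in 1D, against 1.00 in 11B, 0.996 in 20B, 0.991 in 30 and 1.00 in 42 (0.19 log2), short of the size of 0.5. For Mrps18a the clones 1D, 11B and 42 stood at a level shared with 1212 other probe sets. All 3 promoter windows hold the ETS letters, that of Mrps18b after the start and outside the stretch shown.

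By subunit, the large-subunit genes had a median range of 0.53 log2 units and the small-subunit genes 0.31. A range of at least 0.5 was reached by 26 of 46 large-subunit (56.5%) and 10 of 26 small-subunit genes (38.5%), with 41.5% over all measured genes. A range of at least 1 was reached by 7 large-subunit genes and 1 small-subunit gene, with 13.0% over all measured genes. In clone 42 the median deviation was 0.055 log2 for the large and 0.0090 for the small subunit. In clone 1D it was 0.0062 for the large and 0.044 for the small subunit. With Mrps18a and Mrps30 counted in the large subunit, where their proteins sit, the medians in 42 were 0.028 and 0.012. These differences are smaller than the error of a single probe set, and whether the subunits differ was not tested.

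Of the 18 genes measured on several probe sets, 3 had probe sets at least 1 log2 unit apart in the deviation of a clone. For Mrps2 in 42, the first probe set lay 1.12 log2 above the other clones and the second 0.046. The first had ratios of 1.64 in 1D and 2.05 in 42, against 0.843 in 11B, 1.00 in 20B and 0.887 in 30. The second had 1.14 in 1D and 1.03 in 42, against 1.00 in 11B, 0.994 in 20B and 0.946 in 30, so the place of Mrps2 among the high genes of 1D and 42 rests on 1 probe set. For Mrpl13 in 30, the probe sets lay between -0.23 and 0.93 log2, and for Mrps9 in 20B between -0.43 and 0.60. The averages of Mrpl13 and Mrps9 ranged over only 0.29 and 0.12 log2 units, although single probe sets of each ranged far more widely. Mrpl44, whose protein has an RNase III-like fold, was measured on 4 probe sets. Clone 30 lay between 0.669 and 0.927 on them, against 1.00 to 1.40 in 1D, 0.896 to 1.57 in 11B, 0.996 to 1.02 in 20B and 0.913 to 1.00 in 42, and their average was -0.46 log2 in 30.

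**Figure D4:**
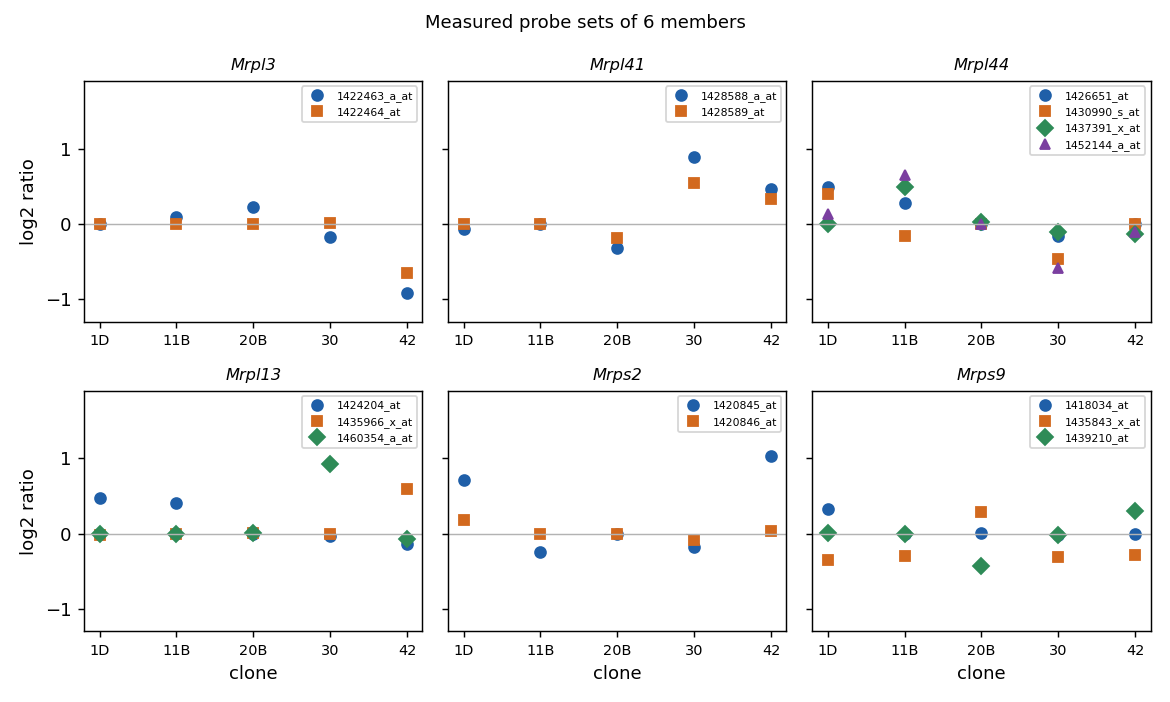
Log2 ratio (vertical) by clone (horizontal) of every measured probe set of 6 genes, 1 symbol and colour per probe set. Both probe sets of Mrpl3 are lowest in clone 42 and both of Mrpl41 highest in clone 30, whereas those of Mrps2 separate in 42, those of Mrpl13 in 30 and those of Mrps9 in 20B.

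The smallest ranges of an average over several probe sets were those of Mrpl9, at 0.098 log2 units, Mrps9 (0.12), Mrpl11 (0.19), Mrpl17 (0.22) and Mrpl52 (0.22). Such an average can be small because probe sets oppose each other: those of Mrpl17 deviated by 0.35 and -0.15 in 1D and ranged over 0.56 and 0.38, and those of Mrps9 are described above. The probe sets of Mrpl9 ranged over 0.21 and 0.066. Mrpl11 belongs to the base of the stalk where translation factors bind. Against all genes, 8.74% had a smaller range than Mrpl9, and 91.9% had a smaller range than Mrpl20.

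Other genes of mitochondrial translation were counted in the same way, with few past 0.5 log2 units in any clone. Of 15 measured assembly factors, 7 had a range of at least 0.5, of 8 translation factors 3, and of 17 mitochondrial aminoacyl-tRNA synthetases 3 (17.6%), where the background was 41.5%. Malsu1, which binds Mrpl14, lay 0.81 log2 higher in clone 30, whereas the deviation of Mrpl14 was -0.025 log2 there and 0.84 in 20B. Mtif2, the initiation factor, lay 1.00 log2 lower in 42 and 0.61 higher in 11B. Fars2, which charges the phenylalanine tRNA, lay 0.96 log2 lower in 11B, and Mettl17 0.64 lower in 1D. Of the subunits with other names, Gadd45gip1 lay 0.66 log2 lower in 11B and 0.78 higher in 30, and Ptcd3 0.78 higher in 20B.

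Mitochondrial transcription and RNA handling had 11 measured genes, 6 with a range of at least 0.5 log2 units (54.5% against 41.5% of all genes). Their median deviation was 0.20 in 1D and 0.15 in 11B, against 0.0014 and -0.0015 over all measured genes. Supv3l1, an RNA helicase with the largest range of the list (2.44), lay 1.68 log2 higher in 11B and 1.02 lower in 30. Polrmt, the mitochondrial RNA polymerase, lay 0.96 log2 higher in 30 and 0.70 lower in 1D. Pnpt1, an RNA-degrading enzyme, lay 0.59 log2 higher in 11B and 0.82 lower in 30. Of 8 measured regulators, 3 had a range of at least 0.5 (37.5% against 41.5%). Nrf1 lay 0.76 log2 higher in 1D, with -0.48 in 11B, Gabpa 0.53 higher in 1D and Yy1 0.55 lower in 42. The median deviation of the mitochondrial ribosomal protein genes in 1D was 0.010.

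Among 14 import and protease genes, all measured, 10 had a range of at least 0.5 log2 units (71.4% against 41.5%). Hspa9, the import motor chaperone, lay 1.05 log2 higher in 1D, and the protease genes Lonp1 and Clpp lay 0.69 and 0.82 higher in 30 and 1.19 and 0.70 higher in 42. Of 42 cytosolic ribosomal protein genes, 36 were measured, with 17 at 0.5 or more (47.2% against 41.5%). Their median deviation was -0.084 log2 in 11B, -0.10 in 20B, 0.11 in 30 and 0.12 in 42, each farther from 0 than that of the mitochondrial ribosomal protein genes. Over all measured genes the medians in these clones lay between -0.012 and 0.0036. No probe set was assigned to the mitochondrially encoded genes, so the output of these ribosomes is not described.

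**Figure D5:**
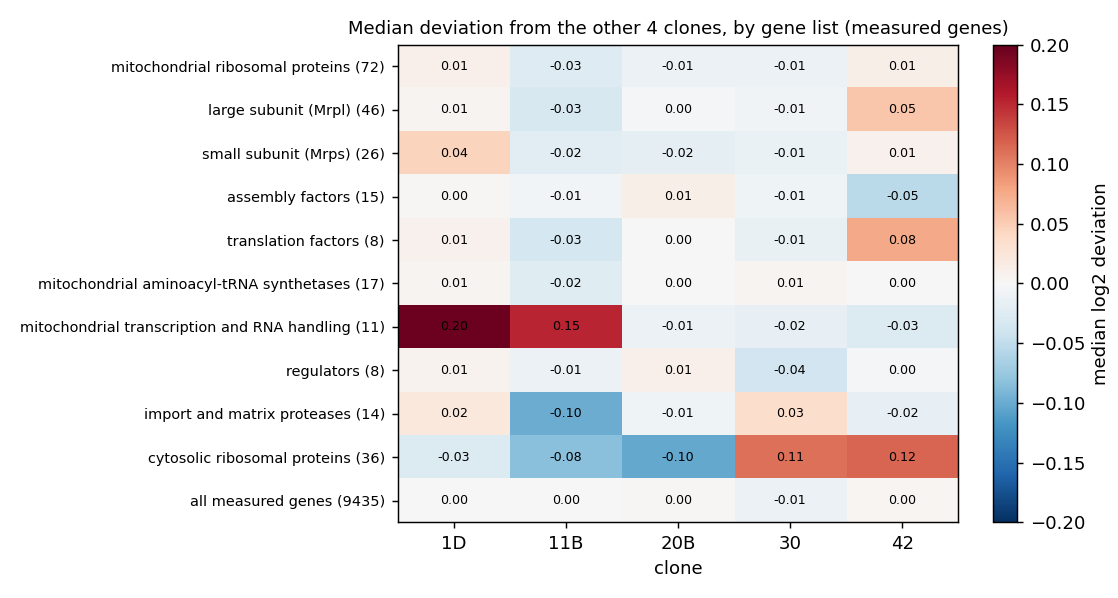
Median log2 deviation from the median of the other 4 clones for each gene list (rows, number of measured genes in brackets) in each clone (columns). The mitochondrial ribosomal protein genes stay within -0.03 and 0.01, while the transcription and RNA handling list reaches 0.20 in 1D and the cytosolic ribosomal proteins -0.10 in 20B and 0.12 in 42.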

How the data were processed

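Total RNA of 5 clones was measured on 1 Affymetrix array each. The deposited table holds a ratio per probe set, a unit read from the values: 42.0% of probe sets had a median of exactly 1, 58.0% a median below 1, and none a higher one. RMA and GCRMA are named, without versions, in the submitters' processing notes; other steps by the authors, and a genome build, are not given in the sources used here. Arrays have no read depth; their number limits the precision. All 5 columns of values were used.

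Gene symbols came from the annotation supplied for the array, leaving out 932 with several symbols and 9211 with none; all 76 member symbols matched the RefSeq table. The design had assumed levels, and its measures were applied to log2 ratios instead. Each clone was its own group. With 1 array per clone no test and no p-value was computed. Shared levels are ratios of at least 3 clones recurring together on at least 10 other probe sets. Calculations used Python 3.11.15, numpy 2.4.6 and pandas 2.3.3, figures matplotlib 3.10.9, and were tested on simulated data.

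The members and lists were chosen with earlier results of these data known. Members were named by rule: the 12 largest ranges and any range of at least 1 log2 unit; the 2 farthest above and below in each clone; the Mrps18 paralogs; the 5 smallest ranges on several probe sets; and probe sets at least 1 log2 unit apart. Up to 3 genes with the largest range came from each other list. Mrpl38, Mrpl45, Mrps11, Mrpl10, Mrps6, Mrps22, Mrpl36 and Afg3l2 were named after their values were seen. So were members given only for their chromosome. Alternatives varied the averaging of probe sets, filters, floor, normalization, tied and cross-hybridizing probe sets and clones; 3 were added after seeing the data.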

Additional observations from a re-analysis of the deposited data

How the results depend on the processing

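No paired analysis was possible because each clone has 1 array and no replicate number joins the clones. Over 12 alternatives, 294 of 302 summary values stayed within their tolerance and 8 moved. The tolerance was 0.040 log2 units for a median of the members, 0.084 for a difference of subunits and a ratio of 1.5 for a count. Every median deviation of the members and every subunit difference was itself smaller than its tolerance. For these, staying within it does not show that a sign was kept. The subunit difference in 1D, for example, ran from -0.046 to 0.0011. With every probe set averaged, measured or not, which mixes in probe sets at the floor, 23 genes (30.3% against 14.6% of all genes) ranged over at least 0.5 log2 units and 4 (5.26% against 3.74%) over at least 1. In that setting 3 genes lay at least 0.5 log2 units away in 11B (3.95% against 2.84%), 5 in 30 (6.58% against 4.41%) and 2 in 42 (2.63% against 3.39%), and the median difference 11B minus 42 was -0.039. The same averaging put Mrpl3 at -0.40 in 42, Mrpl49 at -0.37 in 30, Mrps25 at -0.16 in 20B, Mrps11 at -0.28 in 11B, Mrpl57 at 0.32 in 42 and Mrpl41 at 0.48 in 30, all short of 0.5. Quantile normalization left 3 such genes in 1D (4.17% against 7.66%), where there were 5. Mrpl19 went from 0.507 to 0.496 and Mrps2 from 0.512 to 0.484, just short of 0.5. Without probe sets at a shared level, the median difference 1D minus 11B was 0.12 log2 units, against 0.059; this setting, chosen after seeing the data, tests fewer genes. The split in clone 11B ran the same way in the 11 that bear on it: 21 to 26 genes lay more than 0.1 log2 units below and 4 to 8 above. Leaving out 1 other clone gave 23 to 29 below and 7 to 10 above. Leaving out 1 other clone gave 3 to 6 genes at least 0.5 log2 units away in 1D, with 3 without 11B. It also gave 24 to 32 genes with a range of at least 0.5 and 4 to 8 with a range of at least 1, with 4 without 1D or without 30 and 5 without 11B. Mrpl32 in 20B lay at 0.45 without 1D or without 11B, and Mrpl38 in 11B at -0.41 without 30 or without 42. No farthest deviation of at least 0.5 of a named gene changed sign, but smaller ones did: Mrpl13 in 30 (0.17) lay at -0.23 without shared levels, and Mrpl9 in 42 (0.085) at -0.031 without tied probe sets. The floor leaves dim probe sets without a difference, and 1 array per clone leaves clone and array indistinguishable.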
